A study of Mus musculus with 8 samples.

Results

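The 10 genes of MHC class II presentation were followed in FCGR4+ and FCGR4- macrophages sorted from the epididymal white adipose tissue (eWAT) of the same obese mice. They were taken by symbol and comprised the classical chains *H2-Aa*, *H2-Ab1*, and *H2-Eb1*, the invariant chain *Cd74*, the peptide exchange factor genes *H2-DMa*, *H2-DMb1*, and *H2-DMb2*, the genes of its inhibitor, *H2-Oa* and *H2-Ob*, and the transactivator *Ciita*. All 10 of the 54146 genes listed were found, and all 10 were among the 17095 genes with enough counts to be tested. The mice were of genotype C57Bl6 and had eaten a high-fat diet ad libitum for 24 weeks, after which they received 30% less food during 2 weeks of short-term caloric restriction (stCR). Both populations therefore came from obese mice after stCR, and no lean mice or mice without restriction entered the comparison. Digested tissue was flow-sorted for leukocytes (CD45+) that carried CD11b and lacked CD3, B220, Ly6G, and SiglecF, and these were divided by FCGR4, a receptor for IgG. The sort was thus set against T cells, B cells, neutrophils, and eosinophils by surface protein and held no marker against dendritic cells. RNA-Seq libraries of 4 mice, 1 of each population from each mouse, gave 8 libraries. The groups are named for a surface protein in a single tissue, so the values are means over all cells that passed each gate.

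MHC class II molecules carry peptides from endocytosed proteins to the cell surface, where CD4 T cells read them. An α and a β chain assemble in the endoplasmic reticulum around the invariant chain, which blocks the peptide groove and guides the complex to endosomes. There the invariant chain is cut down by cathepsins to a small remnant, CLIP, and the dimer H2-DM exchanges CLIP for antigenic peptide. H2-O, a dimer found mainly in B cells and in some dendritic cells, binds H2-DM and restrains this exchange. Macrophages, dendritic cells, and B cells switch on the classical chains, the invariant chain, and H2-DM together through CIITA, a coactivator that interferon γ induces in macrophages and that is recruited to class II promoters by proteins bound at the X and Y boxes. Adipose tissue macrophages are known to carry class II and to present antigen to T cells in the fat of obese animals.

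Promoters of class II genes are known for this X and Y box arrangement, and the stretches below come from members with high and with low counts in these libraries. They come from RefSeq promoter windows on GRCm38.p6 (the mm10 assembly of the files), which run from 250 bases before to 50 bases after each start site. Each stretch ends with the Y box core, GATTGG, and begins 45 bases before it, 5′ to 3′ on the strand of the gene, with that core and the X box core searched here, AGNAAC, in capitals. *H2-Aa* (minus strand, chr17:34287867-34287917), *H2-Eb1* (plus strand, chr17:34305762-34305812), *H2-Oa* (plus strand, chr17:34092290-34092340), and *H2-Ob* (plus strand, chr17:34238802-34238852) are shown because the first 2 are abundant class II chains and the other two are the inhibitor genes that differed between the populations.
H2-Aa: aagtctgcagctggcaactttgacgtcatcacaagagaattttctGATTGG
H2-Eb1: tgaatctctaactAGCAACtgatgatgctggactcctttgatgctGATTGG
H2-Oa: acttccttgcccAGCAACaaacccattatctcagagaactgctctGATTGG
H2-Ob: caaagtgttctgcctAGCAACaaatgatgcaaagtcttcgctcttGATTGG
The Y core lay 49 bases before the start site of *H2-Aa*, 60 before that of *H2-Eb1*, 44 before that of *H2-Oa*, and 58 before that of *H2-Ob*. The X core preceded it by 32 bases in *H2-Eb1*, 33 in *H2-Oa*, and 30 in *H2-Ob*, and was not among the letters of the *H2-Aa* window. Windows were matched for 7 of the 10 members, not for *H2-Ab1*, *Cd74*, or *Ciita*, with 2 windows for *H2-DMa*. GATTGG lay on the strand of the gene in 7 of these 8 windows, all but 1 of *H2-DMa*, while 16.1% of all 32851 windows of 300 bases held it on either strand. AGNAAC occurred in 48.1% of all windows. Both cores, with the Y core starting 20 to 45 bases after the X core on the same strand, occurred in 4 of the 8 windows (*H2-Eb1*, *H2-DMb1*, *H2-Oa*, and *H2-Ob*) and in 0.487% of all windows. The start sites of the H2-DM genes differ between RefSeq and the deposited annotation. Those of *H2-DMa* lie 9664 and 12350 bases before the deposited start, and those of *H2-DMb1* and *H2-DMb2* lie 119 and 1942 bases after it, so the pair of *H2-DMb1* falls within the gene as deposited and may not be promoter sequence. The letters and the distance were set after these promoters had been seen, so the counts describe the sequences and test nothing. The motif pair was thus present in both inhibitor genes and in members whose level did not pass the test.

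Sequencing depth lay between 35992794 and 66856746 counts per library, and 3 counts, taken as the smallest signal, correspond to between 0.0440 and 0.0883 CPM, the library-normalized unit of level used throughout. *Fcgr4*, the gene of the sorted receptor, was higher in FCGR4+ libraries in all 4 mice (log2 fold change 1.61, SE 0.173; adjusted P = 0.0162 by the quasi-likelihood test of edgeR, blocked by mouse). The macrophage label was checked against 11 markers, among them *Lyz2*, *Cd68*, *Csf1r*, and *Adgre1*. Their summed level was 30080 to 55180 CPM in FCGR4+ and 24326 to 48540 CPM in FCGR4- libraries. Many markers of other cells stood lower in FCGR4+ macrophages. By edgeR, 8 of 8 tested mast cell and basophil markers and 6 of 9 T and NK cell markers were called lower. So were 5 of 7 neutrophil markers, 3 of 6 fibroblast markers, and 1 of 8 B cell markers, beside 1.19% of all tested genes. T cells and neutrophils are among the cells that the sort was set to remove. In bulk RNA, fewer cells of a type and less RNA per cell cannot be told apart.

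The members lay far apart in level, the invariant chain and the H2-A chains being among the most abundant transcripts of these cells and the inhibitor genes the lowest of the 10 in FCGR4+ macrophages. Levels were compared between genes per kilobase of exon (normalized CPM per kilobase, with the authors' gene length). In FCGR4+ macrophages, *Cd74* stood highest at 9176 ± 1550 (SD, n = 4), followed by *H2-Ab1* at 4823 ± 685, *H2-Aa* at 2343 ± 359, and *H2-Eb1* at 2165 ± 405. The H2-DM genes came next, with *H2-DMb1* at 334 ± 76.9, *H2-DMa* at 235 ± 47.5, and *H2-DMb2* at 43.2 ± 9.41. *Ciita*, a regulator, was at 6.04 ± 3.49, and the inhibitor genes closed the order with *H2-Ob* at 0.858 ± 0.425 and *H2-Oa* at 0.739 ± 0.181. *Cd74* ranked 13th per kilobase among all 17095 tested genes in FCGR4+ and 16th in FCGR4- macrophages, and *H2-Ab1* ranked 24th in both. *H2-Oa* ranked 11978th in FCGR4+ and 7067th in FCGR4- macrophages, and *H2-Ob* 11608th and 8248th. All 10 members together took 2.33% to 3.44% of the counts in FCGR4+ libraries and 1.89% to 2.78% in FCGR4- libraries.

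The order of these levels was the same in both populations down to *Ciita*. Each gene in the upper part of the order lay above its lower neighbor in 4 of 4 libraries of either population, though the ranges of *H2-Aa* and *H2-Eb1* overlapped in both populations and those of *H2-DMb1* and *H2-DMa* overlapped in FCGR4+ macrophages. At the lower end, *H2-Ob* exceeded *H2-Oa* in 2 of 4 FCGR4+ libraries, so these neighbors did not differ beyond their spread. In FCGR4- macrophages *H2-Oa* was at 3.97 ± 1.72 CPM per kilobase, close to *Ciita* at 4.60 ± 0.857 (higher for *Ciita* in 2 of 4 libraries), and *H2-Ob* was at 2.78 ± 0.180. The authors' length counts every annotated exon base of a gene, which sets the per-kilobase value of a gene with long alternative exons, such as *Ciita* (9535 bases), lower than that of a short gene with the same counts.

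**Figure D1:**
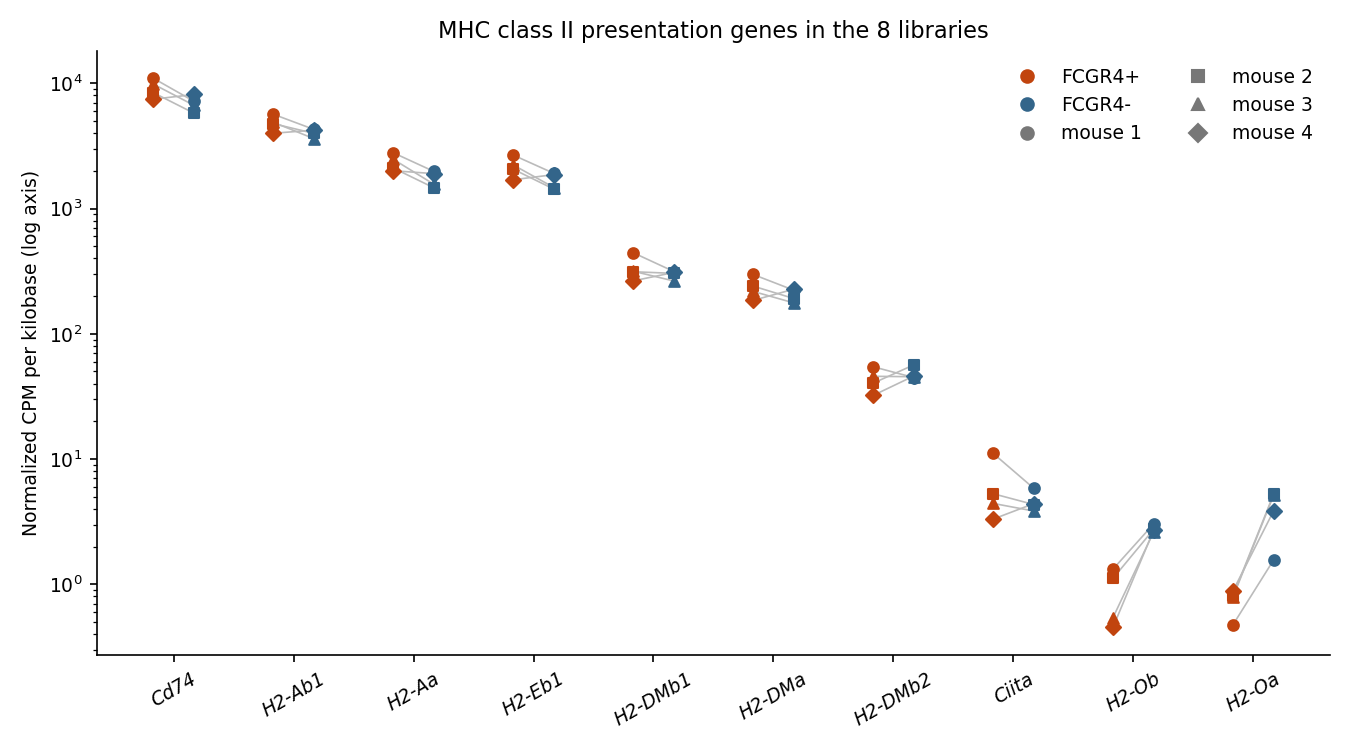
Level of each class II gene in all 8 libraries, as normalized CPM per kilobase of exon on a log axis, with genes ordered by their mean in FCGR4+ macrophages. Orange points are FCGR4+ and blue points FCGR4- libraries, symbols mark the 4 mice, and grey lines join libraries of the same mouse. The lines rise steeply from FCGR4+ to FCGR4- only at *H2-Ob* and *H2-Oa*, where FCGR4+ macrophages stood at means of 0.858 and 0.739 compared with 2.78 and 3.97 in FCGR4- macrophages.

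The first comparison asked whether the class II chains themselves differed between the populations. Transcripts of the chains and of the invariant chain had higher means in FCGR4+ macrophages, by 1.19- to 1.36-fold, and none of these differences passed the threshold in edgeR's test (adjusted P under 0.1 over all 17095 genes). *H2-Aa* encodes the α chain of H2-A (ENSMUSG00000036594, chr17:34282744-34287827, minus strand). Its level was 5225, 3948, 4634, and 3752 CPM in the FCGR4+ libraries of mice 1, 2, 3, and 4, and 3702, 2740, 2924.5, and 3559 CPM in their FCGR4- libraries. Every FCGR4+ library lay above every FCGR4- library, which held for 0.883% of all tested genes in this direction. The log2 fold change was 0.44 (SE 0.141, 95% interval 0.11 to 0.77, adjusted P = 0.338 by edgeR). With DESeq2 in the same paired design, *H2-Aa* passed (adjusted P = 0.0740), as did 1.12% of all tested genes in this direction.

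*H2-Ab1*, the β chain of H2-A (ENSMUSG00000073421, chr17:34263209-34269418, plus strand), was at 9265, 7788, 7998, and 6528 CPM in FCGR4+ libraries of mice 1, 2, 3, and 4 and at 7005, 6515, 5908, and 6916 CPM in FCGR4- libraries. The groups overlapped because mouse 4 had less *H2-Ab1* in its FCGR4+ than in its FCGR4- library, while the other 3 mice had more (log2 fold change 0.25, SE 0.136, adjusted P = 0.580 by edgeR). *H2-Eb1*, the β chain of H2-E (ENSMUSG00000060586, chr17:34305877-34316199, plus strand), was at 3164, 2441, 2639, and 2008 CPM in FCGR4+ and at 2259, 1690, 1742, and 2209 CPM in FCGR4- libraries. Again 3 of 4 mice had the higher value in FCGR4+ macrophages and mouse 4 did not (log2 fold change 0.37, SE 0.160, adjusted P = 0.514 by edgeR).

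*Cd74* (ENSMUSG00000024610, chr18:60803848-60812646, plus strand), the chaperone of newly made class II, was the most abundant member. It was at 15471, 11873, 13893, and 10515 CPM in FCGR4+ libraries of mice 1, 2, 3, and 4 and at 10115, 8130, 9392, and 11468 CPM in FCGR4- libraries. Mice 1, 2, and 3 shared log2 ratios of 0.55 to 0.61, and mouse 4 had -0.13, so that the fitted log2 fold change was 0.40 (SE 0.159, 95% interval 0.03 to 0.78, adjusted P = 0.482 by edgeR). Before adjustment, P was 0.0160 for *H2-Aa*, 0.0393 for *Cd74*, 0.0532 for *H2-Eb1*, and 0.103 for *H2-Ab1* in the same edgeR fit. The upper ends of the 95% intervals of the 4 genes lay between 0.57 and 0.78 on the log2 scale. The partner of *H2-Eb1* in mice that make H2-E is *H2-Ea*, of which only the pseudogene entry *H2-Ea-ps* was matched here; it had 8 counts in the FCGR4- library of mouse 2 and 0 in the other 7 libraries.

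**Figure D2:**
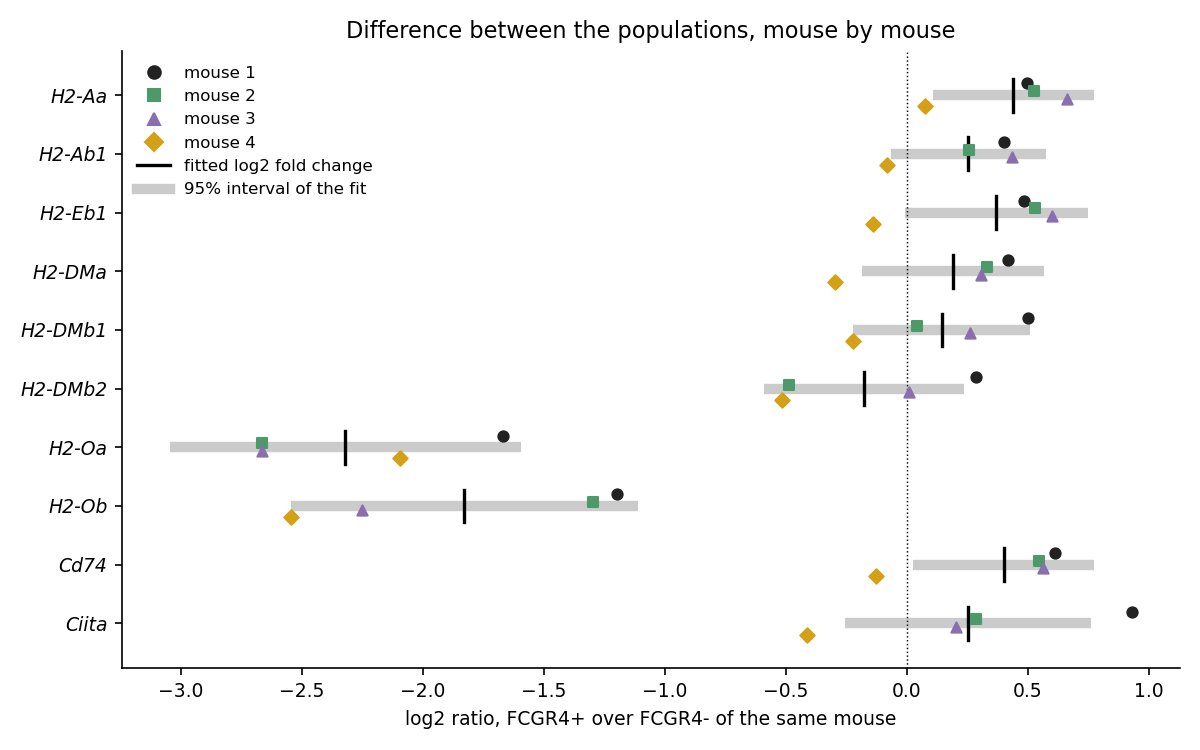
log2 ratio of FCGR4+ over FCGR4- macrophages for each class II gene (x axis), with 1 symbol per mouse, the log2 fold change fitted by edgeR as a black line, and its 95% interval as a grey bar. The 4 mice of *H2-Oa* and *H2-Ob* all lie at -1.20 or below, the other genes lie between -0.52 and 0.93, and mouse 4 has the lowest ratio of the 4 mice for 9 of the 10 genes, *H2-Oa* being the exception.

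The H2-DM genes, whose products load peptide by removing CLIP, showed no difference that passed. *H2-DMa* (ENSMUSG00000037649, chr17:34135182-34139101, plus strand) was at 386 ± 77.9 CPM in FCGR4+ and 335 ± 40.3 CPM in FCGR4- macrophages (log2 fold change 0.19, SE 0.160, 95% interval -0.19 to 0.57, adjusted P = 0.693 by edgeR). *H2-DMb1* (ENSMUSG00000079547, chr17:34153072-34160230, plus strand), one of a pair of neighboring β chain genes, was at 496 ± 114 and 442 ± 33.98 CPM (log2 fold change 0.15, SE 0.155, adjusted P = 0.751). Both had the higher value in FCGR4+ macrophages in 3 of 4 mice, mouse 4 being the exception. *H2-DMb2* (ENSMUSG00000037548, chr17:34143307-34151553, plus strand) was at 73.9 ± 16.1 and 82.3 ± 9.52 CPM, higher in 2 mice and lower in the other 2 (log2 fold change -0.18, SE 0.175, adjusted P = 0.738). The groups overlapped for all 3 genes. The neighboring β chain genes cannot be read apart in full. Of the 50-base words in *H2-DMb1* transcripts, 22.7% also occur in *H2-DMb2*, and a pair with several mapping places added a count at every one. When the counts of both were added before the fit, the log2 fold change of the sum was 0.10 (edgeR, adjusted P = 0.837), the opposite sign to that of *H2-DMb2* alone.

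The genes of the inhibitor H2-O were the members that differed between the populations, and both were lower in FCGR4+ macrophages. *H2-Oa* (ENSMUSG00000024334, chr17:34092340-34095234, plus strand), the α chain, was at 0.624, 1.06, 1.04, and 1.16 CPM in FCGR4+ libraries of mice 1, 2, 3, and 4 and at 2.06, 6.92, 6.79, and 5.08 CPM in FCGR4- libraries. The groups did not overlap, and mouse 1 had the lowest value in each. The means were 0.971 ± 0.238 and 5.21 ± 2.26 CPM (n = 4 each), a log2 fold change of -2.32 (SE 0.308, 95% interval -3.05 to -1.60, adjusted P = 0.0361 by edgeR). These levels rest on 37 to 65 read pairs per FCGR4+ library and 134 to 376 per FCGR4- library.

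*H2-Ob* (ENSMUSG00000041538, chr17:34238903-34245907, plus strand), the β chain, was at 4.16, 3.51, 1.71, and 1.43 CPM in FCGR4+ libraries of mice 1, 2, 3, and 4 and at 9.59, 8.68, 8.29, and 8.54 CPM in FCGR4- libraries. The FCGR4- libraries lay close together (8.77 ± 0.566, n = 4), whereas the FCGR4+ libraries were spread more widely (2.71 ± 1.34, n = 4), and the groups did not overlap. It was 3.55-fold lower in FCGR4+ macrophages (log2 fold change -1.83, SE 0.304, 95% interval -2.55 to -1.11, adjusted P = 0.0647 by edgeR). *H2-Oa* and *H2-Ob* ranked 56th and 129th by P among all tested genes.

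Of the 10 members, 2 were therefore called lower and 0 higher by edgeR, while 1.19% of all 17095 tested genes were called lower and 0.0819% higher. With DESeq2 the same 2 were called lower (adjusted P = 5.52e-09 for *H2-Oa* and 4.14e-06 for *H2-Ob*), when 4.87% of all tested genes were. Groups that did not overlap, with FCGR4+ macrophages lower, were seen for these 2 members and for 3.02% of all tested genes. Only 3 members lay on the same side in all 4 mice, namely *H2-Aa* (higher, as were 8.38% of all tested genes) and *H2-Oa* and *H2-Ob* (lower, as were 10.5%). The median log2 fold change was 0.22 over the 10 members and -0.0025 over all tested genes. *H2-Oa* still passed without mouse 1 (adjusted P = 0.0645 by edgeR) or mouse 3 (adjusted P = 0.0616) but not without mouse 2 (adjusted P = 0.145) or mouse 4 (adjusted P = 0.115), and *H2-Ob* did not pass without any 1 of the mice (adjusted P from 0.113 to 0.184) or when the mouse block was left out (adjusted P = 0.148). The log2 fold change stayed between -2.51 and -2.16 for *H2-Oa* and between -2.44 and -1.25 for *H2-Ob* over all 13 alternatives run for each.

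The antisense gene *BC051537* overlaps 15.2% of the exon bases of *H2-Oa*, and strand was not used in counting, so pairs there cannot be assigned to either gene and are missing from both. *BC051537* itself had 3 counts in 1 library and 0 in the other 7.

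Ratios within a library were taken next, since they do not depend on the scaling between libraries. H2-O (the sum of *H2-Oa* and *H2-Ob* per kilobase) amounted to 0.226%, 0.324%, 0.230%, and 0.278% of H2-DM (the sum of its 3 genes per kilobase) in the 4 FCGR4+ libraries, given from mouse 1 to mouse 4. In FCGR4- libraries it amounted to 0.793%, 1.45%, 1.61%, and 1.13%. Every FCGR4+ value lay below every FCGR4- value, with a mean log2 difference of -2.20 ± 0.427 (SD, n = 4 mice; exact two-sided paired permutation test, P = 0.125, the smallest that 4 pairs allow; adjusted over 4 ratios, P = 0.25). The transcript of the inhibitor was thus scarce beside that of the exchange factor in both populations and scarcer in FCGR4+ macrophages in 4 of 4 mice.

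The other ratios differed less between the populations. *H2-Ab1* per *H2-Aa*, the β over the α chain of H2-A, was 2.06 ± 0.131 in FCGR4+ and 2.36 ± 0.251 in FCGR4- libraries, lower in 4 of 4 mice with a mean log2 difference of -0.19 ± 0.0772 (exact paired permutation P = 0.125, adjusted P = 0.25). *Cd74* per H2-A was 1.28 ± 0.0512 and 1.21 ± 0.125, higher in 3 of 4 mice (log2 difference 0.09 ± 0.138, exact permutation P = 0.375, adjusted P = 0.5). *Ciita* per H2-A was 0.000810 ± 0.000350 and 0.000798 ± 0.0000954 (log2 difference -0.06 ± 0.397, exact permutation P = 0.875, adjusted P = 0.875), a difference smaller than the spread between mice.

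**Figure D3:**
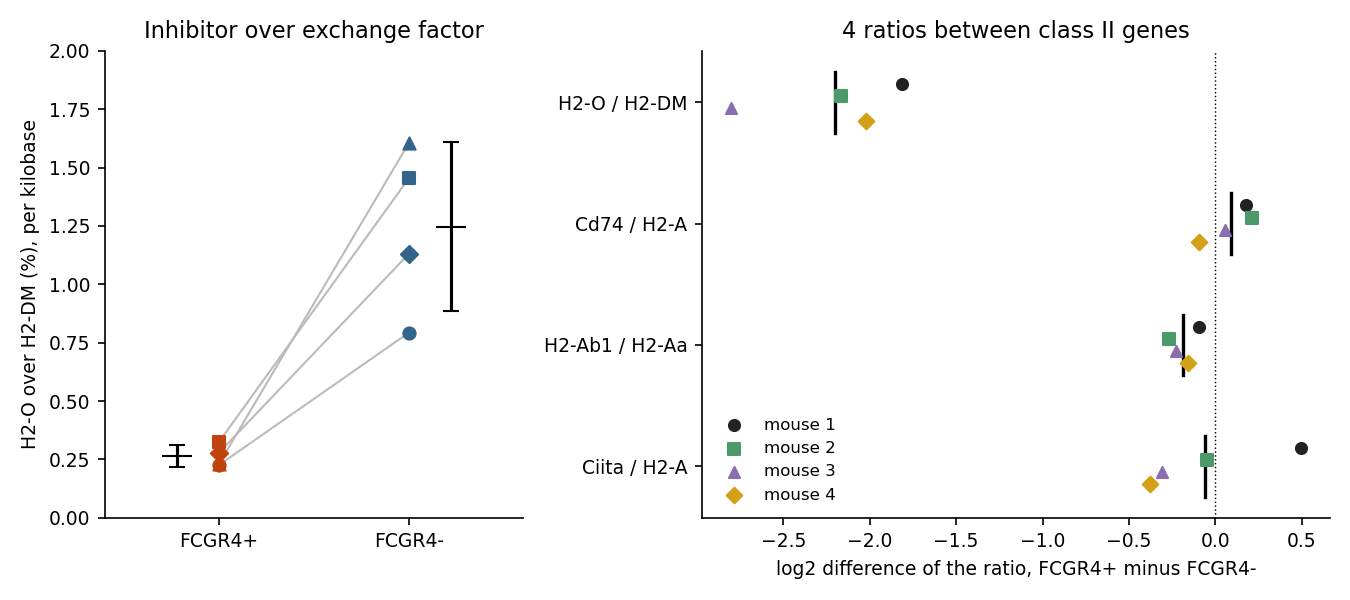
Left, H2-O over H2-DM in percent, per kilobase, in each library (symbols mark the mice, grey lines join the same mouse, and black bars give mean ± SD of 4 libraries), on an axis that starts at 0. Right, the log2 difference of 4 ratios between FCGR4+ and FCGR4- macrophages of each mouse, with the mean as a black line: H2-O over H2-DM lies at -2.20 and the other 3 lie between -0.19 and 0.09.

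Dendritic cells and B cells are known to make H2-O, and their markers were read beside it. Of 15 tested dendritic cell markers, 6 were called lower and 0 higher in FCGR4+ macrophages by edgeR (*Flt3*, *Dpp4*, *Cd209a*, *Ccr7*, *Fscn1*, and *Ccl22*), with a median log2 fold change of -1.92. Among all tested genes, 1.19% were called lower. *Cd209a*, a lectin of a CD11b+ dendritic cell subset, was at 5.20 ± 2.93 CPM in FCGR4+ and 31.4 ± 15.7 CPM in FCGR4- macrophages (log2 fold change -2.60, adjusted P = 0.0252). *Flt3*, the growth factor receptor of the dendritic lineage, was at 1.20 ± 0.713 and 10.01 ± 2.47 CPM (log2 fold change -3.28, adjusted P = 0.0516), and *Ccr7*, which guides migrating dendritic cells to lymph nodes, was at 1.30 ± 1.03 and 14.2 ± 7.78 CPM (log2 fold change -3.54, adjusted P = 0.0195). Neither *Zbtb46*, a transcription factor of conventional dendritic cells (2.37 ± 0.843 and 4.31 ± 0.943 CPM, adjusted P = 0.383), nor *Xcr1*, at 0 in 1 FCGR4+ library (0.256 ± 0.296 and 4.25 ± 1.79 CPM, adjusted P = 0.227), passed. The summed level of the list was 260 to 369 CPM in FCGR4+ and 334 to 436 CPM in FCGR4- libraries, lower in FCGR4+ macrophages in 4 of 4 mice, and much of it came from *Clec10a*, *Mgl2*, and *Itgax*, which macrophages also express.

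Of 8 tested B cell markers, 1 was called lower and 0 higher, with a median log2 fold change of -1.42 and a summed level of 39.0 to 81.6 CPM in FCGR4+ and 40.9 to 74.3 CPM in FCGR4- libraries. *Pax5*, *Blk*, and *Cr2* were too low to be tested. Among non-member genes of at least 1 CPM, a comparison chosen after the values were seen, the profile closest to the mean of *H2-Oa* and *H2-Ob* over the 8 libraries was that of *Acap1* (Pearson r = 0.976), followed by that of *Cd209a* (r = 0.970). All 10 of the closest genes had negative log2 fold changes, and 5 were called lower. After the mean of each population was subtracted, the 10 closest genes shared 0 with these and 0 were called, *Gm12263* (r = 0.986) and *Rreb1* (r = 0.984) being the closest. These correlations describe libraries that share mice and differ by population. The part of dendritic cell or B cell RNA in the H2-O result was not tested.

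*Ciita* (ENSMUSG00000022504, chr16:10480059-10528418, plus strand), the coactivator that sets class II transcription, was at 106, 50.4, 42.2, and 31.6 CPM in FCGR4+ libraries of mice 1, 2, 3, and 4 and at 55.6, 41.3, 36.7, and 42.0 CPM in FCGR4- libraries. Mouse 1 stood highest in both populations, the groups overlapped, and 3 of 4 mice had the higher value in FCGR4+ macrophages (log2 fold change 0.25, SE 0.217, 95% interval -0.26 to 0.76, adjusted P = 0.696 by edgeR). The genes that act before and after *Ciita* were read from 5 lists with 41 tested genes. By edgeR 0 were called in either direction. At an unadjusted P under 0.05 there were 4 higher and 3 lower, beside 9.77% of all tested genes in either direction, and DESeq2 called 2 higher and 3 lower.

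Of 20 tested genes of interferon γ input and class II transcription, 10 had positive and 10 negative log2 fold changes (median -0.01). *Rfx5*, a subunit of the X box binding complex, was at 2.90 ± 1.36 CPM in FCGR4+ and 2.30 ± 0.975 CPM in FCGR4- macrophages (log2 fold change 0.31, SE 0.360, adjusted P = 0.774 by edgeR). *Irf1*, an interferon-induced transcription factor, was at 74.5 ± 37.2 and 79.7 ± 29.2 CPM (log2 fold change -0.12, SE 0.286, adjusted P = 0.900). Both varied more between mice than between populations.

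All 10 tested genes of endosomal processing had a positive log2 fold change, with a median of 0.12, and none was called by edgeR (3 were higher at an unadjusted P under 0.05). The smallest were those of *Cst3* (0.01) and *Ctsz* (0.02), each higher in 2 of 4 mice. Among all 17095 tested genes, 8500 had a positive value, and 9.77% had an unadjusted P under 0.05 in either direction. *Ctss*, cathepsin S, which makes the last cuts in the invariant chain, was at 5174, 9455, 6657, and 5353 CPM in FCGR4+ libraries of mice 1, 2, 3, and 4 and at 3318, 8547, 3211, and 3172 CPM in FCGR4- libraries. It was higher in all 4 mice, most in mouse 3 and least in mouse 2, in which both populations stood far above those of the other mice (log2 fold change 0.65, SE 0.168, adjusted P = 0.215 by edgeR and 0.00955 by DESeq2). *Ifi30*, a thiol reductase that unfolds antigen in endosomes, was at 188 ± 35.1 and 179 ± 30.7 CPM (log2 fold change 0.07, SE 0.125, adjusted P = 0.858).

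Beyond loading, class II is removed from the surface by ubiquitin ligases of the MARCH family, which CD83 opposes. *March1*, *March8*, and *Cd83* had positive log2 fold changes (median 0.30), and none passed. *Cd83* was at 231 ± 66.7 and 193 ± 70.6 CPM (log2 fold change 0.30, SE 0.171, adjusted P = 0.598 by edgeR). Of 7 tested genes of costimulation and inhibition at the T cell contact, 1 had a positive log2 fold change and 6 had negative ones (median -0.44), and none passed by edgeR. *Cd86*, the ligand of CD28, was at 137 ± 41.6 and 140 ± 32.1 CPM (log2 fold change -0.04, adjusted P = 0.938), and *Cd40*, which receives help from T cells, was at 42.9 ± 8.24 and 38.0 ± 10.4 CPM, higher in 4 of 4 mice by small amounts (log2 fold change 0.19, adjusted P = 0.634). The genes that DESeq2 called lower, named after their values were seen, were *Irf4*, *Cd80*, and *H2-Eb2*. *H2-Eb2*, a further β chain gene, was at 0.258 ± 0.289 and 1.11 ± 1.01 CPM and lower in 4 of 4 mice (log2 fold change -2.67, SE 0.781, adjusted P = 0.288 by edgeR and 0.0260 by DESeq2).

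**Figure D4:**
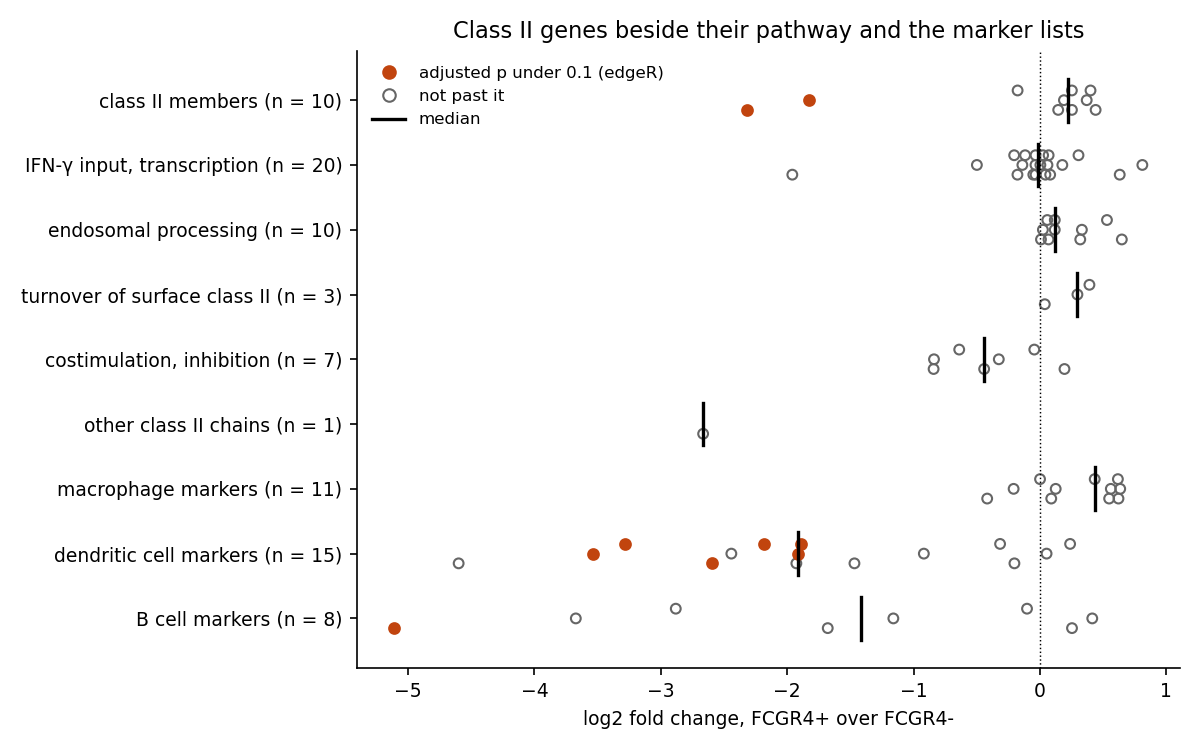
log2 fold change of FCGR4+ over FCGR4- macrophages for the 10 class II genes, for 5 lists of the class II pathway, and for macrophage, dendritic cell, and B cell markers, with 1 point per tested gene and a black line at each median. Filled orange points passed an adjusted P of 0.1 in edgeR's test: 2 class II genes, 0 of 41 pathway genes, 0 of 11 macrophage markers, 6 of 15 dendritic cell markers, and 1 of 8 B cell markers.

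Of the 11 macrophage markers, 9 had positive log2 fold changes, while *Csf1r* (-0.21) and *Cd14* (-0.42) had negative ones. By edgeR 0 were called, 6 were higher at an unadjusted P under 0.05, and DESeq2 called 6 higher, with a median log2 fold change of 0.43. Among all tested genes, 9.77% had an unadjusted P under 0.05 in either direction, and DESeq2 called 1.12% higher. The complement genes *C1qa*, *C1qb*, and *C1qc* had log2 fold changes of 0.64, 0.62, and 0.62 (adjusted P = 0.345, 0.297, and 0.321 by edgeR), beside 0.44 for *H2-Aa* and 0.40 for *Cd74*. The part of the macrophage share of the RNA in the class II values was not tested.

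The abundant members moved together from library to library. Over the 8 libraries, Pearson's r of log2 CPM lay between 0.886 and 0.971 for each pair among *H2-Aa*, *H2-Ab1*, *H2-Eb1*, and *Cd74*, and *H2-DMa* and *H2-DMb1* extended the range to 0.704. *H2-Oa* had an r of -0.908 to -0.800 with the 4 abundant genes, and *H2-Ob* of -0.563 to -0.344. After the mean of each population was subtracted, *H2-Oa* kept negative values (-0.785 to -0.518), whereas those of *H2-Ob* were positive (0.405 to 0.724). *Ciita* was closest to *H2-DMb1* (r = 0.959). These values share libraries and mice and are given as a description.

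Mouse by mouse, FCGR4+ macrophages had the higher value for 8 of 10 members in mouse 1, for 7 in mouse 2, for 8 in mouse 3, and for 1 (*H2-Aa*) in mouse 4. The median log2 ratio over the members was 0.45, 0.27, 0.28, and -0.26 in mice 1, 2, 3, and 4, whereas over all tested genes it lay between -0.05 and 0.03. Mouse 4 shared its animal ID prefix with mouse 3. Within the mice of each prefix alone, 0 members passed by edgeR (at an unadjusted P under 0.05 there were 6 in mice 1 and 2, beside 7.28% of all tested genes, and 2 in mice 3 and 4, beside 21.0%), and the log2 fold change was -2.22 for *H2-Oa* and -1.25 for *H2-Ob* in mice 1 and 2 and -2.44 for both in mice 3 and 4.

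Other genes with a profile like that of the abundant members were sought among 8080 non-member genes with a mean of at least 10 CPM. Among the 10 with the highest Pearson's r to the mean log2 CPM of *H2-Aa*, *H2-Ab1*, *H2-Eb1*, and *Cd74* over the 8 libraries were *Smim19*, *Itsn1*, *Pus10*, *Calhm6*, *Lair1*, *Ptp4a2*, *Scamp5*, *C1qc*, and *Mrps30*, with r from 0.870 to 0.928. Of these, *Lair1*, an inhibitory receptor for collagen, was called higher in FCGR4+ macrophages (log2 fold change 0.66, SE 0.125, adjusted P = 0.0949 by edgeR). After the mean of each population was subtracted, the 10 closest were *Smim19*, *Pdlim5*, *Nfatc2*, *Itsn1*, *Nsmf*, *Dock8*, *Mrps30*, *Ptger4*, *Fbxo4*, and *Fgd2*, with r from 0.893 to 0.971. The lists shared 3 genes.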

How the data were processed

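RNA of FCGR4+ and FCGR4- eWAT macrophages of 4 mice was sequenced. The authors mapped read pairs to mm10 with STAR and deposited counts per gene, unnormalized, from featureCounts 1.6.3 with GENCODE M18; per the file headers, a pair with several mapping places was counted at every one, pairs on overlapping genes were dropped, and strand was not used. The deposited table also gives each gene's exon length. Populations and mice were taken from the sample labels, which give both libraries of a mouse the same number. Libraries of the same mouse deviated together from their population means (r from 0.291 to 0.428, against a median of -0.06 for other pairs), so mouse was kept as a block. No 2 libraries of a population agreed within sampling noise (chi-square per degree of freedom at least 83.6).

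Genes that reached 10 counts in 4 or more libraries were normalized by TMM and tested with edgeR 4.0.16 (quasi-likelihood, R 4.3.3), with Benjamini-Hochberg adjustment over all tested genes and a threshold of 0.1. The study's methods used DESeq2 with the same terms; DESeq2 1.42.0 was run as an alternative. Per-mouse log2 ratios used a prior count of 2. Ratios between members were tested by exact permutation over mice. The scripts were tested on simulated data. Shared 50-base words came from GENCODE M21 on the same assembly, and exon overlap came from the exon coordinates deposited with the counts. *March1* and *March8* stand under their older symbols.

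The members, lists, and tests were chosen with earlier results of these data known. Named genes are all members; *Ctss*, *Ifi30*, *Rfx5*, *Irf1*, *Cd86*, *Cd40*, *Cd83*, and any other pathway gene past the threshold; defining markers; and the 10 genes closest in profile. Some genes that this rule names, or that a count includes, are not reported here. Alternatives changed the block, test, normalization, filter, threshold, mice, scale of the ratios, and measure of likeness. The 3-count floor covers counting error only.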

Additional observations from a re-analysis of the deposited data

Results flagged for a closer look

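In groups of 4 values, a value far from the other 3 was sought for the level of each member in each population, for its log2 ratio by mouse, and for the 4 ratios between members. Of 42 groups examined, 4 were found, and chance alone gives about 1 in 20, or 2.1 of 42. The gap of the far value is given as a share of the whole range. It was 0.910 for the log2 ratio of *Cd74* (mouse 4, -0.13, with the others at 0.55 to 0.61), 0.846 for that of *H2-Eb1* (mouse 4, -0.14 against 0.49 to 0.60), and 0.842 for that of *H2-DMa* (mouse 4, -0.30 against 0.31 to 0.42). Members that correlate across libraries are not separate observations, so the 3 values of mouse 4 count as 1 pattern. The fourth was the level of *H2-DMb2* in FCGR4- macrophages, where mouse 2 had 96.5 CPM and the others 76.4 to 78.7 CPM (share 0.886). Without mouse 4, 0 members were called by edgeR, and 5 had an unadjusted P under 0.05, as did 6.95% of all tested genes.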

How the results depend on the processing

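The counts of calls moved with the processing more than the direction of the members did. Without the replicate block, 48 genes passed (1 higher, 47 lower) and 1 member, *H2-Oa*. DESeq2 in the paired design called 1024 genes (192 higher, 832 lower) and 3 members, with *H2-Aa* as the 1 higher. edgeR's newer quasi-likelihood method called 629 (57 higher, 572 lower), and the fit without a filter on low counts called 1054 (159 higher, 895 lower), each with the same 2 members. Scaling by library size alone gave 8 higher genes. At a threshold of 0.05, 76 genes passed (2 higher, 74 lower) and 1 member, *H2-Oa*. Mice 1 and 2 alone gave 115 genes (7 higher, 108 lower) and mice 3 and 4 alone 72 (11 higher, 61 lower), with 0 members in either. Leaving out 1 mouse gave 78 to 162 genes (2 to 9 higher, 76 to 153 lower) and 0 to 1 members. The causes were not tested, beyond the smaller number of samples or genes that some alternatives have by construction.

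The sign turned in mice 3 and 4 alone for *H2-DMa* (-0.016), *H2-DMb1* (-0.0018), and *Ciita* (-0.12), and for *H2-DMb2* when it was summed with *H2-DMb1* (0.10). The log2 difference of *Ciita* per H2-A ran from -0.24 to 0.048 when 1 mouse was left out. The other ratios kept their sign, although with 3 mice the exact test cannot reach a small P. Pairing by mouse changed no other member's call. The Spearman correlation shared 4 of the 10 genes closest in profile over the 8 libraries, and a floor of 1 CPM shared 6.

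With 4 mice, the 95% intervals of members that did not pass lay between -0.59 (*H2-DMb2*) and 0.78 (*Cd74*) on the log2 scale. The intervals of *H2-Oa* and *H2-Ob* were wider, and these genes rest on few read pairs. RNA of other cells in the FCGR4- gate cannot be told apart from a lower level per macrophage.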
